A study of Mus musculus with 18 samples.

Results

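Irradiated, DL1-treated cultures of mouse blood stem and progenitor cells were set against control cultures that had received neither, to see which transcript levels came back to the control level with DL1, stayed changed or went past it. The comparison used 6 of the 18 libraries of the series, and 11981 of its 25629 listed genes reached the mean of 1 FPKM (fragments scaled by transcript length and by the library's mapped total) over those 6 libraries. All cells were LSK cells of C57Bl/6 mice, the bone marrow cells that lack lineage markers and carry cKit and Sca1. Each library began as 200 LSK cells from 1 mouse. They spent 6 days in a medium holding mouse SCF (stem cell factor) and the human cytokines Flt3L, IL-11 and IL-6, after which the LSK gate was applied a second time. The 3 irradiated libraries with DL1 came from mice that had received 2.5 Gy from a caesium-137 source and had recovered for at least 9 weeks, with DL1 in the culture. The 3 irradiated libraries without DL1 came from such mice without the ligand, the 3 control libraries with DL1 from unirradiated mice with it, and the 3 control libraries from unirradiated mice without it. The labels do not spell out DL1, read here as the Notch ligand Delta-like 1, and the sources used here do not give how it was presented. The labels do not say whether cultures with the same number shared a mouse, so p-values measure only the spread between these libraries.

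Delta-like ligands bind Notch receptors on a neighbouring cell. Proteases of the ADAM family and the gamma-secretase complex then cut the receptor, and the freed part joins the DNA-binding protein RBPJ in the nucleus and switches on genes such as Hes1. In blood progenitors Notch signals are known for directing cells towards the T lineage and away from myeloid fates, whereas the transcription factor C/EBPα, encoded by Cebpa, drives the granulocyte and monocyte fates. The series, by its title, asks whether C/EBPα and Notch act in opposite ways in blood stem cells harmed by radiation.

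The sorting markers were high in these libraries. Kit lay between 31.6 and 36.4 FPKM in irradiated cultures with DL1 and between 31.7 and 36.6 FPKM in control cultures, and Ly6a, which encodes Sca1, between 580 and 601 FPKM in irradiated cultures with DL1 and between 432 and 561 FPKM in control cultures. The T-cell gene Cd3e reached at most 0.0527 FPKM in these 6 libraries, while the myeloid gene Itgam reached 118 to 144 FPKM in irradiated cultures with DL1 and 115 to 167 FPKM in control cultures. Depth, read from the smallest steps between low values, was between 0.756 and 1.09 of that of the first control library, except 0.488 in irradiated replicate 2 with DL1. Across genes, libraries of irradiated cultures with DL1 correlated with each other at 0.994 to 0.995 and with control libraries at 0.978 to 0.983.

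Against control cultures, 2471 of the 11981 tested genes differed in irradiated cultures with DL1 at an adjusted p under 0.05 (limma), 20.6% of those tested. Of these, 1351 (11.3%) were higher and 1120 (9.35%) lower, the shares to set beside the counts of each gene list below. Without control replicate 1, the genes called lower numbered 735. A difference of at least 1 on the log2(FPKM + 1) scale was reached by 152 of the higher genes (1.27%) and 110 of the lower genes (0.918%). The filter kept Dgkh at a mean of 1 FPKM, Fblim1 at 1.001 and Nat8f1 at 1.004, and left out Hspa1a at 0.9953, Prrg1 at 0.9939 and Trim62 at 0.9937.

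The genes were then sorted by what had happened without DL1. Between irradiated cultures with and without DL1, 4947 genes differed (41.3%), and between control cultures with and without DL1, 3136 (26.2%). Irradiation alone changed 3541 genes (29.6%), 1630 higher (13.6%) and 1911 lower (16.0%) in irradiated cultures without DL1 than in control cultures. With DL1, 1731 of the 3541 (48.9%) were brought back, which here means that DL1 moved them in the opposite direction, that they were no longer called against control and that the 95% interval of the difference from control lay within 0.5 on the log2 scale. A further 480 (13.6%, or 4.01% of all tested genes) were pushed past, being called against control in the opposite direction, and 498 (14.1%) were left changed in the same direction. Of those left changed, 390 (3.26% of all tested genes) showed no called shift with DL1, 46 had partly returned and 62 had moved further from control. The other 832 (23.5%, or 6.94% of all tested genes) were unresolved. Another 1180 genes (9.85% of those tested), 746 higher and 434 lower, differed from control with DL1 although irradiation alone had not changed them by this test, and 313 (2.61%) differed from control without being separated from irradiation alone. The 3 contrasts behind these classes share libraries, and the classes were read from them, so the class sizes are a description without a test. The margin of 0.5 was wider than the median change of the genes brought back. After irradiation alone that change was 0.34 for those raised and -0.27 for those lowered. A margin of 0.3 gave 1385 genes brought back.

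The class sizes depended on individual libraries. Genes pushed past numbered 274 without control replicate 1 and 307 without control replicate 2. Genes left changed numbered 251 and 227 without those libraries and 328 without irradiated replicate 1 with DL1. Genes brought back numbered 961 without control replicate 2, 887 without irradiated replicate 1 without DL1 and 2638 without irradiated replicate 3 without DL1.

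**Figure D1:**
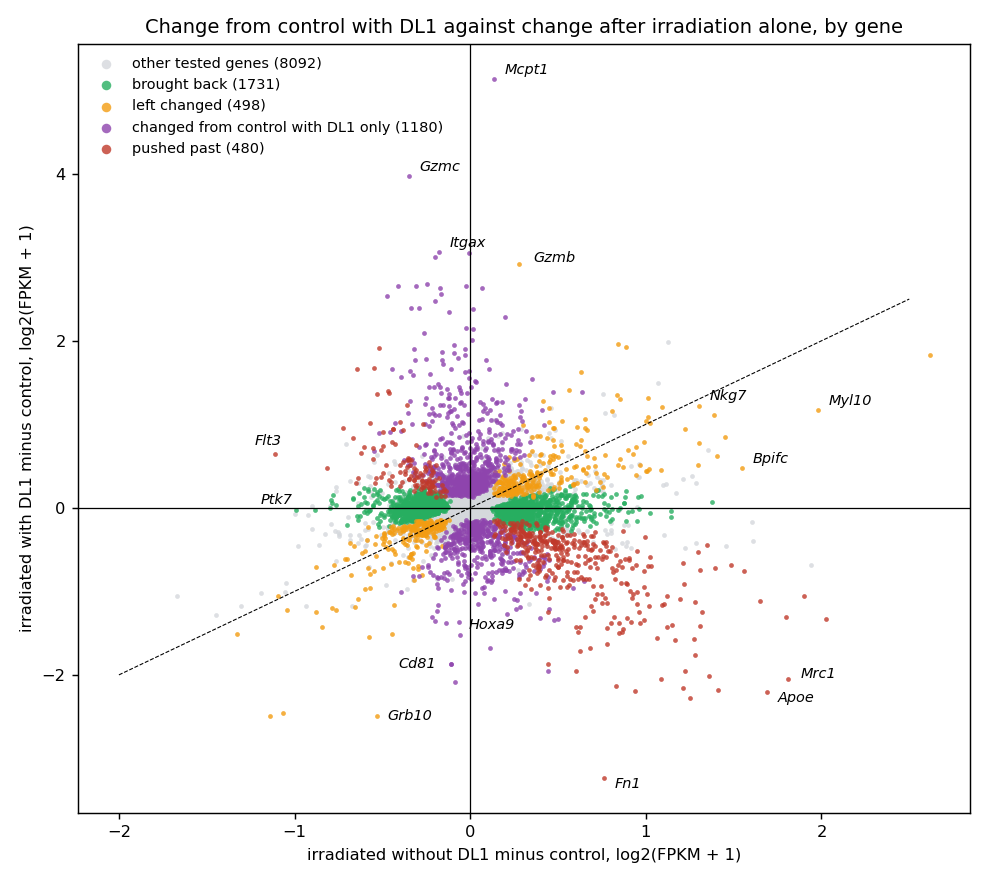
Each point is 1 of the 11981 tested genes, placed by its difference from control in irradiated cultures without DL1 (horizontal) and with DL1 (vertical), both in log2(FPKM + 1), and coloured by class; both axes use the same 3 control libraries. The 480 genes pushed past lie on opposite sides of the axes, with Fn1, Apoe and Mrc1 far below 0, the 1731 brought back lie along the horizontal axis, and the 1180 changed from control with DL1 only lie along the vertical one.

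Genes of monocytes and macrophages were the clearest group past the control level. Of 22 tested genes of that list, 14 were lower and 0 higher in irradiated cultures with DL1 than in control cultures, with a median difference of -0.71, against 9.35% lower and a median of 0.02 over all tested genes. Without DL1, 17 of the 22 had been higher after irradiation and 0 lower, with a median of 0.92. In control cultures with DL1, 20 of the 22 were lower and 0 higher than in control cultures, with a median of -1.37. Levels below control were thus not particular to irradiated cultures with DL1. Of the 22, 13 were pushed past (8 with no expression filter), and 1, the lysosomal glycoprotein gene Cd68, was brought back. Mrc1 among the 13 passed the filter only through the control libraries, so these counts are a description. The summed level of the list's 23 members was 1629 to 2039 FPKM in irradiated cultures with DL1 and 5612 to 8480 FPKM in irradiated cultures without DL1. It was 1051 to 1320 FPKM in control cultures with DL1 and 3030 to 4296 FPKM in control cultures. No member was at 0 throughout a group. In libraries of many cells, fewer cells of a type and less RNA per cell cannot be told apart, and the part of these markers in the other differences was not tested.

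Apoe, which encodes the lipid carrier apolipoprotein E, had 36.8, 39.7 and 43.8 FPKM in irradiated cultures with DL1, 746, 649 and 459 FPKM in irradiated cultures without DL1, and 181, 149 and 243 FPKM in control cultures. The 3 groups did not overlap, and the libraries with DL1 lay below every control library. The difference with DL1 was -2.20 ± 0.18 (SE, n = 3 each, adjusted p = 1.07e-05), and without DL1 it was 1.69 ± 0.18 (adjusted p = 0.000157). Lyz2, the lysozyme of macrophages and granulocytes, had 725, 909 and 669 FPKM in irradiated cultures with DL1, 4548, 3635 and 3073 FPKM in irradiated cultures without DL1, and 1970, 1629 and 2346 FPKM in control cultures. Its groups were likewise apart, with a difference of -1.36 ± 0.18 with DL1 (adjusted p = 0.000263). Mrc1, the mannose receptor, had between 0.534 and 0.887 FPKM in irradiated cultures with DL1, against 14.0 to 33.6 FPKM in irradiated cultures without DL1 and 3.91 to 8.63 FPKM in control cultures. Mrc1 was under the filter with DL1 and passed it only through the control libraries, so its values are a description without a test.

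Other genes pushed below control encode matrix, surface and complement proteins. Fn1, which encodes the matrix protein fibronectin, showed the largest fall among the genes named by rule. Its level was 1.11, 1.27 and 1.23 FPKM in irradiated cultures with DL1, 43.9, 37.7 and 24.0 FPKM in irradiated cultures without DL1, and 21.6, 18.0 and 19.7 FPKM in control cultures. The libraries with DL1 were all far under both other groups, with a difference from control of -3.23 ± 0.17 (adjusted p = 4.92e-07). The lipid-sensing receptor gene Trem2 differed from control by -2.28, the glycoprotein gene Gpnmb by -2.18, the scavenger receptor gene Stab1 by -2.16 and the complement gene C1qb by -1.05. Each of these 5 genes stayed in the class past control under every alternative in which it was tested, leaving out each library included.

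Early granulocyte genes were for the most part no longer called. Of 12 tested members, 10 had been higher and 0 lower in irradiated cultures without DL1, with a median of 0.60. With DL1, 1 was higher and 2 were lower than in control, with a median of 0.04, and 6 (50%) met the rule for brought back, against 14.4% of all tested genes. Of the genes that irradiation alone had changed, the share brought back was 48.9% over all tested genes, so 6 members among the 10 changed ones is not set apart from it. With a replicate block 2 were higher, without irradiated replicate 3 with DL1 3 were, and without control replicate 1, irradiated replicate 1 with DL1 or irradiated replicate 3 with DL1, 1 was lower. Mpo, the myeloperoxidase of azurophil granules, had 1719, 1814 and 1564 FPKM in irradiated cultures with DL1, 2726, 3218 and 2646 FPKM in irradiated cultures without DL1, and 1647, 1683 and 1334 FPKM in control cultures. The libraries with DL1 overlapped with control and lay below all those of irradiated cultures without DL1. The difference from control was 0.13 ± 0.10, with a 95% interval of -0.08 to 0.35 (adjusted p = 0.38).

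The granule protease genes Ctsg and Prtn3 and the granulocyte transcription factor gene Gfi1 followed the same course, at -0.06, 0.15 and 0.13 from control with DL1, against 0.63, 0.52 and 0.96 without it, although Prtn3 was called higher than control with a replicate block. Elane, the neutrophil elastase, was unresolved. It had 709, 767 and 542 FPKM in irradiated cultures with DL1, 1205, 1465 and 1032 FPKM in irradiated cultures without DL1, and 518, 538 and 473 FPKM in control cultures. Its levels with DL1 were all above control, and the difference of 0.39 ± 0.14 missed the threshold (adjusted p = 0.0755, or 0.0191 without irradiated replicate 3 with DL1). Cd63, a granule membrane protein gene, had partly returned, at 133 to 139 FPKM with DL1, 214 to 247 FPKM without it after irradiation and 91.1 to 98.6 FPKM in control (0.51 ± 0.07 from control, adjusted p = 0.00037).

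Late neutrophil genes split. Of 9 tested members, 3 were higher and 5 lower in irradiated cultures with DL1 than in control, with a median of -0.42. The lower ones encode proteins of later granules, among them Ltf (lactoferrin), Lcn2 (lipocalin 2), Mmp8 (collagenase) and Chil3 (a chitinase-like protein). The higher ones were the alarmin genes S100a8 and S100a9 and the chemokine receptor gene Cxcr2. S100a8 lost its call with no expression filter and without any library of these groups but irradiated replicate 3 with DL1. Without control replicate 1 or 3 or irradiated replicate 2 or 3 with DL1, 4 were lower. Promoters of Ltf, Lcn2, Mmp8 and S100a9 are shown because each holds a match to the C/EBP motif TTGCNNAA, read on both strands, within the 300 bases from 250 before to 50 after the annotated start (RefSeq, GRCm38.p6), in genes that moved in opposite directions. The match is in capitals; in Ltf it lies on the other strand.
Ltf, chr9:111019042-111019341, + strand: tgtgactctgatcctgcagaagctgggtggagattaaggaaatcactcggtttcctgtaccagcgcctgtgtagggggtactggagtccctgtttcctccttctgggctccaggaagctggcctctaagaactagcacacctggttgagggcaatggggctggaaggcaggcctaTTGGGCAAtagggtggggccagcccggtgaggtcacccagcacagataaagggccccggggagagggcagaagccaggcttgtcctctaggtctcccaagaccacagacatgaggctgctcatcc
Lcn2, chr2:32387690-32387989, - strand: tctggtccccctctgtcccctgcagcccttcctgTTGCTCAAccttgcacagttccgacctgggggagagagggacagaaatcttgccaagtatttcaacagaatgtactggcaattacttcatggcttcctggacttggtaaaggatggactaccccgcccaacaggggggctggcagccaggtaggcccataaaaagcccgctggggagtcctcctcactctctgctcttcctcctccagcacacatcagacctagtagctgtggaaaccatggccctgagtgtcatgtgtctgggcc
Mmp8, chr9:7558179-7558478, + strand: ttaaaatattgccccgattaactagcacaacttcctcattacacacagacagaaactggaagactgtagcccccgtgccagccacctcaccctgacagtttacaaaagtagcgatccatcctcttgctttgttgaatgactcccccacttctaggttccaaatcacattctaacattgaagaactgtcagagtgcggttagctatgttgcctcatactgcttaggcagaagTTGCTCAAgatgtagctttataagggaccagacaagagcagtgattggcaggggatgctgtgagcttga
S100a9, chr3:90695672-90695971, - strand: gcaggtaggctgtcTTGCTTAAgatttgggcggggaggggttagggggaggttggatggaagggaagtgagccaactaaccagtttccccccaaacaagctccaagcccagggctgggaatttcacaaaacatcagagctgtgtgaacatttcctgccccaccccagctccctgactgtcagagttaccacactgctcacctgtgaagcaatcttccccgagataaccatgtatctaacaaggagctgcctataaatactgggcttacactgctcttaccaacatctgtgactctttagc

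Ltf had 1.38, 1.09 and 0.942 FPKM in irradiated cultures with DL1, 8.62, 11.6 and 5.39 FPKM in irradiated cultures without DL1, and 4.66, 4.82 and 5.53 FPKM in control cultures, a difference from control of -1.49 ± 0.18 (adjusted p = 0.00014). Lcn2 had 88.7, 92.1 and 84.1 FPKM in irradiated cultures with DL1, 156, 144 and 158 FPKM in irradiated cultures without DL1, and 124, 115 and 117 FPKM in control cultures (-0.42 ± 0.05, adjusted p = 0.00021). Mmp8 had 151, 163 and 144 FPKM in irradiated cultures with DL1 and 326, 265 and 341 FPKM in control cultures (-1.01 ± 0.14, adjusted p = 0.000292). In all 3 genes the libraries with DL1 lay below every control library.

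S100a9, which encodes calgranulin B, went the other way. It had 578, 643 and 442 FPKM in irradiated cultures with DL1, 924, 1091 and 571 FPKM in irradiated cultures without DL1, and 290, 300 and 321 FPKM in control cultures. Every library with DL1 was above every control library, and the ranges with and without DL1 after irradiation overlapped. The difference from control was 0.85 ± 0.20 (adjusted p = 0.00979, or 0.0578 with no expression filter). A match is a description of these letters, not a site in use: the C/EBP match stood in promoters of 10.2% of tested genes with a sequence, in 16.2% (45 of 278) of those pushed below control and in 16.2% (51 of 315) of those lowered with DL1 only. It stood in 11.2% (10 of 89) of those pushed above control, in 9.91% (54 of 545) of those raised with DL1 only, and, of those brought back, in 61 of 610 whose level with DL1 lay above the control mean and in 70 of 707 whose level lay below it.

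The C/EBP genes themselves differed in course. Cebpa had 50.1, 57.6 and 65.9 FPKM in irradiated cultures with DL1, 73.1, 79.8 and 76.8 FPKM in irradiated cultures without DL1, and 50.4, 55.3 and 49.5 FPKM in control cultures. The levels with DL1 overlapped with control and lay under all irradiated libraries without DL1. The difference from control was 0.15 ± 0.08 (adjusted p = 0.222), and 0.25 without irradiated replicate 1 with DL1 (adjusted p = 0.0401); irradiation alone gave 0.56 ± 0.08 (adjusted p = 0.000902). Cebpe, needed for late granulocyte maturation, stayed high, at 29.3, 30.3 and 20.1 FPKM in irradiated cultures with DL1, 32.2, 37.7 and 26.7 FPKM in irradiated cultures without DL1, and 13.1, 13.3 and 13.0 FPKM in control cultures. Its levels with DL1 were all above control and overlapped with those of irradiation alone (0.94 ± 0.14 from control, adjusted p = 0.000618). Cebpe was the only called gene of the 6 tested family members, apart from Cebpa as given above and Cebpb, which was called lower without irradiated replicate 3 with DL1. Cebpb had 20.7, 23.4 and 52.2 FPKM with DL1, with replicate 3 well above the other two, and 29.6, 30.2 and 36.6 FPKM in control.

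**Figure D2:**
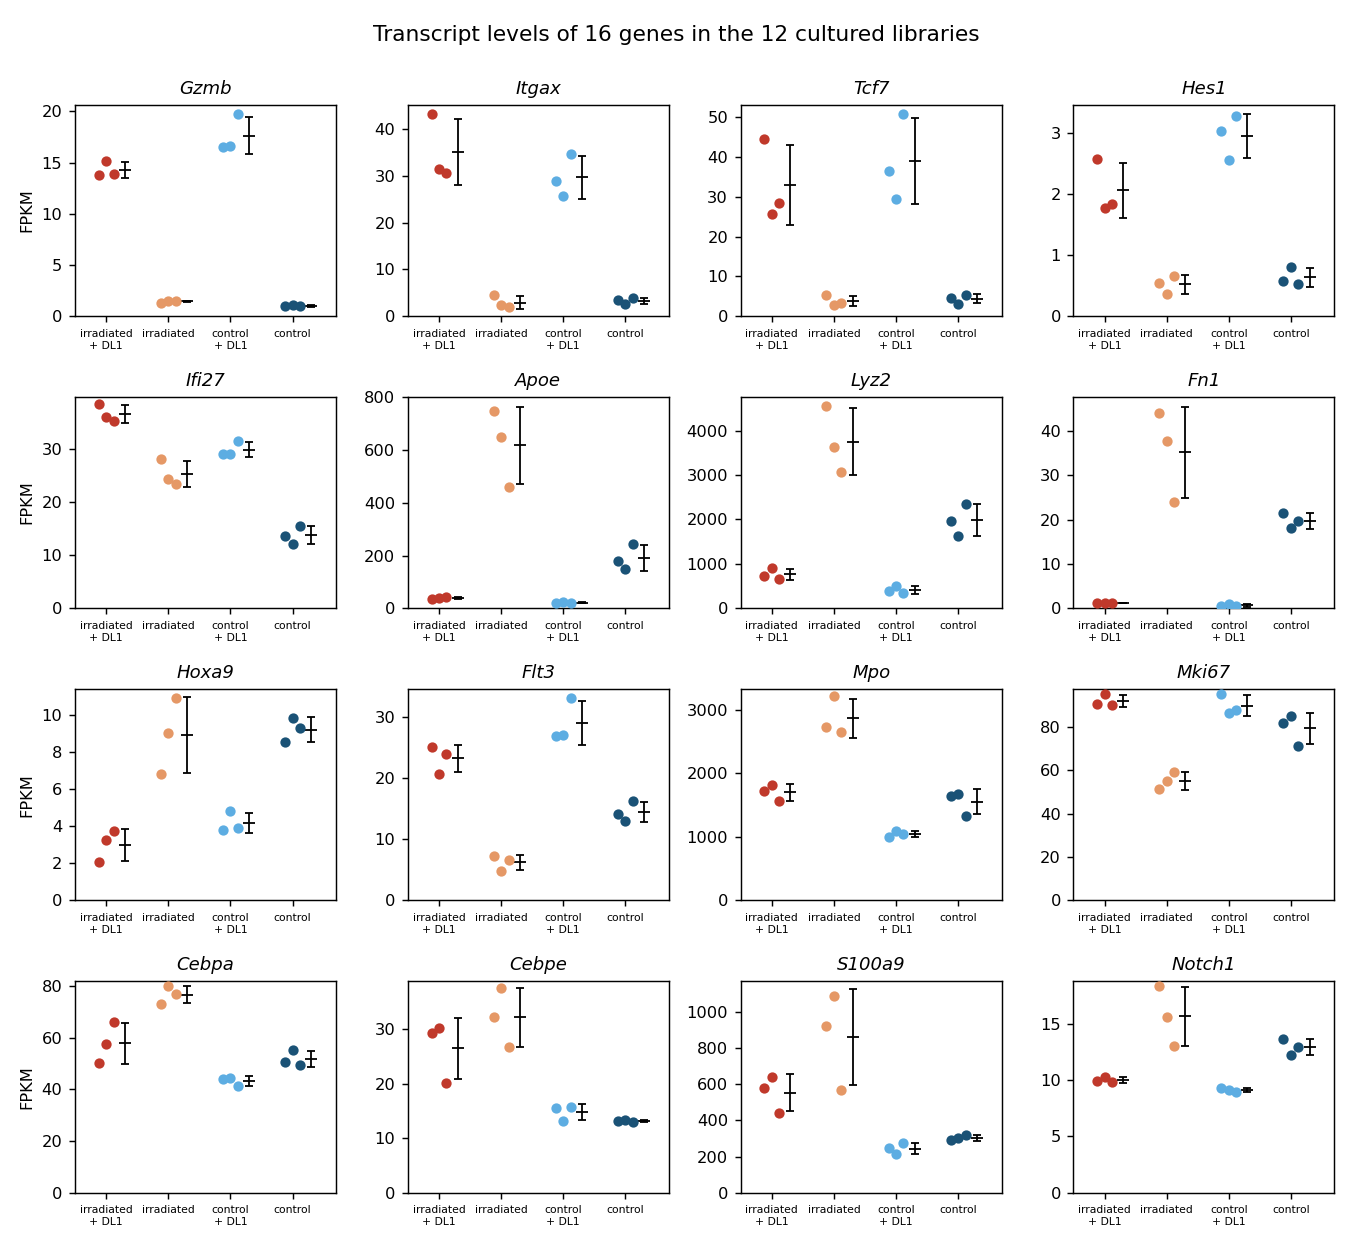
FPKM of 16 genes in each of the 12 cultured libraries (points), with the mean and SD of the 3 libraries of each group beside them (bars), in irradiated cultures with DL1, irradiated cultures, control cultures with DL1 and control cultures from left to right. Apoe, Lyz2 and Fn1 lie below control in irradiated cultures with DL1, Mpo overlaps with control, Cebpe and S100a9 lie above it, and Gzmb, Itgax and Tcf7 are high in both groups with DL1.

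Besides Cebpe, several genes kept their change after irradiation. Nkg7, a granule protein gene of cytotoxic and myeloid cells, had 48.1, 52.8 and 42.2 FPKM in irradiated cultures with DL1, 48.0, 60.9 and 44.2 FPKM in irradiated cultures without DL1, and 18.9, 21.7 and 19.1 FPKM in control cultures. The irradiated groups overlapped with each other and both lay above control (1.22 ± 0.11 with DL1, adjusted p = 2.28e-05). Hdc, which encodes the histamine-forming enzyme, had 13.4 to 15.6 FPKM with DL1, 15.5 to 18.1 FPKM without it after irradiation and 8.001 to 8.78 FPKM in control. Myl10, a myosin light chain gene, had partly returned, at 16.7 to 19.9 FPKM with DL1, 31.1 to 37.4 FPKM without it after irradiation and 6.51 to 8.80 FPKM in control.

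Among genes lowered by irradiation and left low, the endothelial and stem cell gene Egfl7 had 34.1, 40.6 and 38.0 FPKM in irradiated cultures with DL1, 26.5, 31.8 and 43.7 FPKM in irradiated cultures without DL1, and 58.1, 64.6 and 63.6 FPKM in control cultures. All irradiated libraries lay below control (-0.71 ± 0.14 with DL1, adjusted p = 0.0034). Gem, a small GTPase gene, had 3.65 to 5.63 FPKM with DL1 and 11.2 to 13.7 FPKM in control. Bcat1, an enzyme gene of branched-chain amino acid breakdown, had partly returned, at 6.19 to 6.47 FPKM with DL1, 4.66 to 5.79 FPKM without it after irradiation and 8.65 to 9.01 FPKM in control.

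Genes of DNA replication and mitosis moved back towards the control level with DL1 almost as a block. Irradiation alone had lowered 20 of 24 tested replication genes and 18 of 20 tested mitosis genes and raised 0 of either, with medians of -0.26 and -0.34. With DL1, 0 of the 44 genes was called in either direction against control, with medians of 0.00 and 0.05. Of the replication genes 17 met the rule for brought back, 7 without control replicate 2, and of the mitosis genes 18 did, with 12 to 17 when a library was left out, against 14.4% of all tested genes and 48.9% of those changed by irradiation alone. At an unadjusted p under 0.05, 1 replication gene and 4 mitosis genes differed from control; without control replicate 3, 1 replication gene was called lower, and without control replicate 2 or with a replicate block, 1 mitosis gene higher.

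Top2a, the topoisomerase that untangles replicated DNA, had 173, 164 and 177 FPKM in irradiated cultures with DL1, 114, 125 and 132 FPKM in irradiated cultures without DL1, and 176, 170 and 157 FPKM in control cultures. Its levels with DL1 overlapped with control and lay above all irradiated libraries without DL1. Rrm2, a subunit of the enzyme that makes deoxynucleotides, had 150, 152 and 144 FPKM in irradiated cultures with DL1, 104, 123 and 124 FPKM in irradiated cultures without DL1, and 148, 156 and 144 FPKM in control cultures. The mitotic checkpoint kinase gene Bub1b stood at 0.12 ± 0.07 from control with DL1 and at -0.48 ± 0.07 without it. Mki67, the proliferation marker, had 90.6, 94.8 and 89.8 FPKM in irradiated cultures with DL1, 51.1, 54.9 and 59.3 FPKM in irradiated cultures without DL1, and 81.8, 84.8 and 71.2 FPKM in control cultures. Its levels with DL1 were above every control library, and the difference of 0.21 ± 0.07 narrowly missed the threshold (adjusted p = 0.0524), passing it with median-ratio scaling (0.0485) and without control replicate 2 (0.0385). Ccne1, the cyclin that opens S phase, was brought back, at 21.4 to 24.96 FPKM with DL1, 12.7 to 14.9 FPKM without it after irradiation and 19.4 to 21.8 FPKM in control.

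Among other genes brought back, Slc40a1, the iron exporter, had 4.65 to 5.37 FPKM in irradiated cultures with DL1, 11.6 to 15.9 FPKM in irradiated cultures without DL1 and 3.61 to 5.65 FPKM in control cultures. Aqp9, a water and glycerol channel gene, had 15.9 to 16.4 FPKM with DL1, 8.21 to 9.09 FPKM without it after irradiation and 15.9 to 17.1 FPKM in control. Ptk7, a pseudokinase gene of planar polarity, had 8.88 to 10.3 FPKM with DL1, 4.19 to 4.69 FPKM without it after irradiation and 9.49 to 10.3 FPKM in control. In all 3 genes the range with DL1 overlapped with control and was apart from irradiation alone.

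Of 11 genes of cytotoxic lymphocytes 5 passed the filter. These 5 were higher in irradiated cultures with DL1 than in control, with a median of 2.16, against 11.3% higher of all tested genes. Gzma and Gzmc among them were under the filter in control and had to differ, so the count is a description. The summed level of the list's 11 members was 108 to 127 FPKM in irradiated cultures with DL1. It was 48.1 to 66.2 FPKM in irradiated cultures without DL1 and 26.8 to 30.7 FPKM in control cultures. Nkg7 among the 5, given above, was already higher after irradiation alone and showed no called shift with DL1. The defining natural killer cell gene Ncr1 was at 0 in all 6 libraries, and Prf1 and Eomes were at most 0.0751 and 0.0377 FPKM. Gzmc, a granzyme gene, had 29.9, 19.4 and 25.8 FPKM in irradiated cultures with DL1 and 0.699, 0.659 and 0.536 FPKM in control cultures. Gzmb, another granzyme gene, had 13.8, 15.1 and 13.9 FPKM in irradiated cultures with DL1 and 0.964, 1.14 and 0.953 FPKM in control cultures (2.92 ± 0.08, adjusted p = 5.86e-10). The groups were far apart in both genes, and Gzmb was also slightly higher after irradiation alone (0.28 ± 0.08, adjusted p = 0.018). Granzyme genes resemble each other, and how the authors divided reads between such copies is not stated.

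Ccl5, a chemokine gene of T and natural killer cells, had 24.7, 21.0 and 28.6 FPKM in irradiated cultures with DL1 and 3.83, 2.82 and 5.23 FPKM in control cultures (2.39 ± 0.23, adjusted p = 2.42e-05). The mast cell protease gene Mcpt1 was uneven, at 45.9, 58.0 and 25.2 FPKM in irradiated cultures with DL1 and 0.109, 0.144 and 0.313 FPKM in control cultures. It passed the filter only through the libraries with DL1, so its values are a description without a test. Mcpt2, a close copy, had 18.6 to 36.2 FPKM with DL1 and 1.35 to 3.08 FPKM in control. Of the 12 tested mast cell, basophil and eosinophil genes, which do not include these copies, 4 were higher and 0 lower, with a median of 0.36. Irradiation alone had already raised 6 of the 12 and lowered 0, with a median of 0.53. Against irradiation alone, 2 were higher and 3 lower with DL1, with a median of -0.14. Of the 4 genes above control, 3 were left changed after irradiation and 1, Cpa3, was changed with DL1 only. Cpa3, the mast cell carboxypeptidase, had 44.4 to 57.9 FPKM with DL1 and 16.5 to 20.7 FPKM in control.

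Dendritic cell and MHC class II genes rose in 9 of 11 tested members and fell in 1, Tcf4, with a median of 0.90. Over all tested genes 11.3% were higher and 9.35% lower. Below the filter, Clec9a, Xcr1, Siglech and Cd209a were at most 0.0611, 0.342, 0.279 and 0.356 FPKM in these 6 libraries. Zbtb46, also below it, had 0.839 to 1.61 FPKM in irradiated cultures with DL1 and 0.348 to 0.637 FPKM in control cultures. Without control replicate 1 or 2 or irradiated replicate 1 or 2 with DL1, 6 rose: the class II genes H2-Aa, H2-Ab1 and H2-Eb1 lost their call in each of these fits, and with all libraries they were not separated from irradiation alone. The summed level of the list's 16 members was 1433 to 1801 FPKM in irradiated cultures with DL1, 1038 to 1874 FPKM in irradiated cultures without DL1 and 730 to 1263 FPKM in control cultures. Itgax, which encodes CD11c, had 43.1, 31.5 and 30.6 FPKM in irradiated cultures with DL1 and 3.39, 2.54 and 3.95 FPKM in control cultures (3.07 ± 0.22, adjusted p = 3.68e-06). Ciita, the master switch of MHC class II genes, had 23.8, 18.5 and 16.4 FPKM in irradiated cultures with DL1 and 7.62, 5.21 and 9.50 FPKM in control cultures (1.3 ± 0.25, adjusted p = 0.0028). In both genes every library with DL1 lay above every control library. The transcription factor genes Batf3 and Irf4 differed from control by 1.41 ± 0.20 and 0.90 ± 0.13, with 4.44 to 6.38 FPKM and 5.42 to 6.58 FPKM with DL1.

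Of 20 interferon-stimulated genes 15 passed the filter, Mx1 and Cxcl10 only through libraries outside control. These 15 were higher with DL1, with a median of 0.68 (12 without irradiated replicate 1 with DL1), against 11.3% higher of all tested genes. After irradiation alone 5 had been higher and 0 lower, with a median of 0.18. Ifi27, an interferon-induced membrane protein gene, climbed in steps, with 38.5, 36.1 and 35.3 FPKM in irradiated cultures with DL1, 28.1, 24.4 and 23.5 FPKM in irradiated cultures without DL1, and 13.6, 12.2 and 15.5 FPKM in control cultures. The 3 groups did not overlap, and the difference from control was 1.35 ± 0.08 with DL1 (adjusted p = 1.3e-06) and 0.84 ± 0.08 without it (adjusted p = 0.00013). Isg15, a ubiquitin-like antiviral protein gene, had 8.75, 10.7 and 7.89 FPKM in irradiated cultures with DL1, 5.24, 3.25 and 2.98 FPKM in irradiated cultures without DL1, and 3.37, 2.36 and 3.90 FPKM in control cultures (1.27 ± 0.18, adjusted p = 0.00034). Only the libraries with DL1 stood apart. Irf7, a transcription factor of the interferon response, had 5.38 to 6.15 FPKM with DL1 and 1.88 to 2.82 FPKM in control, and Gbp2, a guanylate-binding protein gene, 11.6 to 14.4 FPKM with DL1 and 4.73 to 6.81 FPKM in control.

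**Figure D3:**
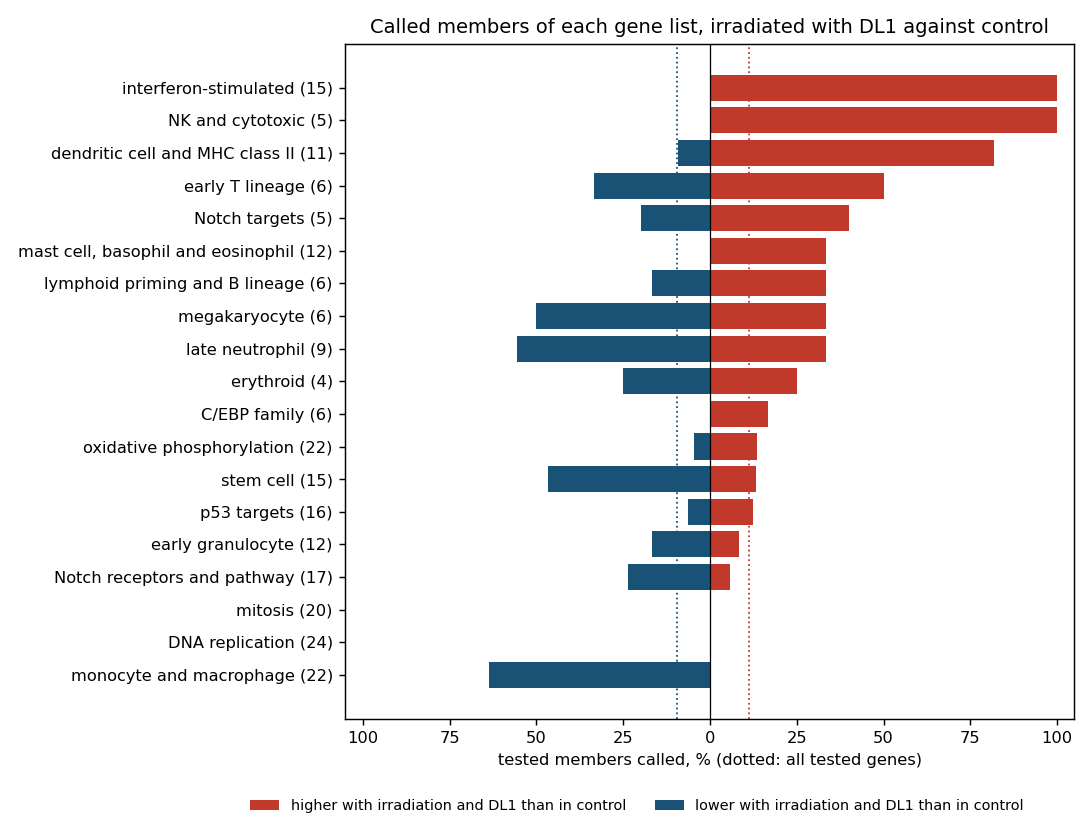
Percentage of the tested members of each of 19 gene lists (number tested in brackets) called higher (right, red) or lower (left, blue) in irradiated cultures with DL1 than in control cultures; dotted lines mark the 11.3% higher and 9.35% lower of all tested genes. Interferon-stimulated and cytotoxic genes are called higher throughout, monocyte and macrophage genes only lower, and replication and mitosis genes in neither direction.

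Among genes that act in or below Notch, Hes1, the textbook target, had 2.58, 1.77 and 1.84 FPKM in irradiated cultures with DL1, 0.540, 0.362 and 0.663 FPKM in irradiated cultures without DL1, and 0.585, 0.807 and 0.520 FPKM in control cultures. The libraries with DL1 lay above all others. Hes1 was under the filter in control and passed it only through the libraries with DL1, so these values are a description without a test. Tcf7, a transcription factor of early T cells, had 44.4, 25.7 and 28.5 FPKM in irradiated cultures with DL1, 5.32, 2.93 and 3.30 FPKM in irradiated cultures without DL1, and 4.71, 3.13 and 5.45 FPKM in control cultures (2.63 ± 0.25, adjusted p = 2.51e-05). Of 13 Notch targets 5 passed the filter, of which 2, Hes1 and Tcf7, were higher and 1, Notch1, was lower. Dtx1, below the filter, had 0.563, 0.259 and 0.388 FPKM with DL1 and 0, 0 and 0.0209 FPKM in control, and Gata3, also below it, had 2.20, 1.2 and 1.59 FPKM with DL1 and 0.259, 0.104 and 0.230 FPKM in control. Il2ra, at 0.379 to 0.537 FPKM with DL1 and 0.243 to 0.410 FPKM in control, overlapped.

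Notch1 and genes of its cutting machinery were lower. Notch1 had 9.97, 10.3 and 9.81 FPKM in irradiated cultures with DL1, 18.4, 15.6 and 13.0 FPKM in irradiated cultures without DL1, and 13.7, 12.3 and 13.0 FPKM in control cultures. Every library with DL1 was below every control library (-0.34 ± 0.09, adjusted p = 0.0196). The call was lost without control replicate 1 (adjusted p = 0.0812), without irradiated replicate 1 (0.0579) or replicate 3 (0.0605) with DL1, and with no expression filter (0.0689). Adam10, the protease of the first cut, had 48.5 to 51.0 FPKM with DL1 and 66.8 to 76.2 FPKM in control (-0.50 ± 0.05, adjusted p = 5.4e-05), and Psen2, a gamma-secretase subunit gene, 11.6 to 12.6 FPKM with DL1 and 15.8 to 18.1 FPKM in control (-0.45 ± 0.07, adjusted p = 0.0011). Of 17 tested receptor and pathway genes, a list without Notch1, 4 were lower and 1 was higher, with a median of 0.00. With a replicate block 2 were higher. Without control replicate 1 or irradiated replicate 1 with DL1, 2 were lower, and the higher call was lost without any library of these groups but irradiated replicate 2 with DL1.

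The early T lineage genes that passed the filter showed no common direction. Of 6 tested members 3 were higher and 2 lower, 1 and 2 without control replicate 1. The summed level of the list's 15 members was 46.1 to 60.6 FPKM in irradiated cultures with DL1 and 24.3 to 27.3 FPKM in control cultures. Cd7 alone gave 32.6 to 45.9 FPKM of this sum with DL1 and 2.64 to 4.33 FPKM of it in control. The higher sum is thus not a rise shared by the list. Cd7, a surface protein gene of early T cells, had 45.9, 32.6 and 32.6 FPKM in irradiated cultures with DL1 and 4.33, 2.64 and 4.33 FPKM in control cultures (3.00 ± 0.27, adjusted p = 1.84e-05). Cd28, a T-cell costimulatory receptor gene, had 1.55 to 2.04 FPKM in irradiated cultures with DL1, 8.72 to 12.3 FPKM in irradiated cultures without DL1 and 5.53 to 7.06 FPKM in control cultures, and Thy1 had 3.04 to 4.55 FPKM, 13.9 to 14.2 FPKM and 8.4 to 12.2 FPKM in these groups. Bcl11b and Cd3e, genes of committed T cells, were at most 0.0382 and 0.0527 FPKM in these 6 libraries, Rag2 was at most 0.0405 FPKM and Rag1 was at 0. Also below the filter, Cd3g had 1.11 to 1.31 FPKM with DL1 and 0.0366 to 0.0967 FPKM in control. Cd3d had 0.352 to 0.478 and 0.124 to 0.211 FPKM in these groups, and Zap70 0.137 to 0.302 and 0.0335 to 0.0900 FPKM. Themis had 0.0345 to 0.115 FPKM with DL1 and 0 in control, and Cd5 overlapped. These values are a description without a test.

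Lymphoid priming genes that irradiation had lowered came back or went past control. Flt3, the receptor of lymphoid-primed progenitors, had 25.2, 20.8 and 23.9 FPKM in irradiated cultures with DL1, 7.27, 4.78 and 6.64 FPKM in irradiated cultures without DL1, and 14.2, 13.0 and 16.3 FPKM in control cultures. The 3 groups did not overlap, and the difference from control was 0.65 ± 0.13 with DL1 (adjusted p = 0.00399) and -1.11 ± 0.13 without it (adjusted p = 0.000284). Satb1, a chromatin organiser of lymphoid progenitors, had 7.38, 7.27 and 8.09 FPKM in irradiated cultures with DL1, 2.69, 2.12 and 2.52 FPKM in irradiated cultures without DL1, and 3.50, 3.23 and 3.73 FPKM in control cultures (0.94 ± 0.09, adjusted p = 2.0e-05). Mef2c and Cd79b were brought back. A promoter of Satb1 is shown because this gene was pushed above control and the sequence holds the RBPJ core GTGGGAA, in capitals, on the other strand at position -70 from the start.
Satb1, chr17:51812005-51812304, - strand: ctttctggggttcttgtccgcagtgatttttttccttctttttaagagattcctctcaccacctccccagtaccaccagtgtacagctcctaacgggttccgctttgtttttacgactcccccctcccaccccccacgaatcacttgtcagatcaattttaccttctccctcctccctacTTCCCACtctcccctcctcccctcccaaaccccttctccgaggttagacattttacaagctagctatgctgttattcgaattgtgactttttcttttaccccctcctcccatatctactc

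The RBPJ core stood in promoters of 6.86% of tested genes with a sequence, in 8.81% (48 of 545) of those raised with DL1 only and in 5.62% (5 of 89) of those pushed above control. Over all 32851 RefSeq promoters it was in 6.38%, and the C/EBP match in 10.8%.

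Of 15 tested stem cell genes 7 were lower, 2 were higher and 6 were not called in irradiated cultures with DL1 against control, with a median of -0.23. Over all tested genes 9.35% were lower and 11.3% higher. The lower count was 3 among the members with a mean of at least 5 FPKM and 10 with no expression filter; irradiation alone had lowered 3 and raised 0. Of the higher ones 1 was called without control replicate 1, control replicate 2 or irradiated replicate 1 with DL1. Hoxa9, a homeobox factor of stem and progenitor cells, had 2.05, 3.25 and 3.72 FPKM in irradiated cultures with DL1, 6.82, 9.00 and 10.9 FPKM in irradiated cultures without DL1, and 8.51, 9.82 and 9.27 FPKM in control cultures. Its libraries with DL1 lay below all others (-1.37 ± 0.17, adjusted p = 0.000131). Hoxa10 had 0.143 to 0.467 FPKM with DL1 and 2.21 to 2.72 FPKM in control. It passed the filter only through the control libraries, so its values and the count of lower genes are a description. Hlf, a stem cell transcription factor gene, had 1.17 to 1.32 FPKM with DL1 and 2.70 to 3.34 FPKM in control. Mycn went the other way, at 3.18 to 4.93 FPKM with DL1 and 0.785 to 1.09 FPKM in control, where its mean was under the filter.

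Of the remaining lineages, megakaryocyte genes had 2 higher and 3 lower of 6 tested, and 1 lower without control replicate 1 or 3 or irradiated replicate 1 or 2 with DL1. Over all tested genes 11.3% were higher and 9.35% lower. Itga2b, the integrin subunit CD41, moved further from control with DL1, at 26.4, 19.9 and 23.6 FPKM in irradiated cultures with DL1, 10.9, 11.2 and 11.1 FPKM in irradiated cultures without DL1, and 6.76, 6.98 and 6.67 FPKM in control cultures (1.63 ± 0.10, adjusted p = 1.2e-06). Its groups did not overlap. Selp, P-selectin, had 6.997 to 9.94 FPKM with DL1 and 18.2 to 22.5 FPKM in control. Erythroid genes had 1 higher, the transferrin receptor gene Tfrc, and 1 lower of 4 tested; with a replicate block Hemgn and Car2 were higher too, making 3. The lower one, the globin gene Hbb-b1, which has near-identical copies, had 2.74, 4.67 and 8.39 FPKM with DL1 and 28.6, 34.3 and 32.5 FPKM in control. Grb10, an imprinted adaptor gene, had 1.70 to 3.37 FPKM with DL1 and 15.2 to 21.2 FPKM in control, and Cd81, a tetraspanin gene, 15.3 to 23.7 FPKM with DL1 and 70.7 to 76.4 FPKM in control.

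Genes of the p53 response and of the respiratory chain were called against control at about the share of all tested genes, which was 20.6%. Of 16 tested p53 targets 2 were higher and 1 lower (18.8% called), with a median of -0.01. Leaving out any library but irradiated replicate 3 with DL1 left 1 higher, as did a replicate block. Cdkn1a, the cell cycle inhibitor p21, had 47.2, 48.0 and 52.9 FPKM in irradiated cultures with DL1 and 50.8, 43.4 and 59.6 FPKM in control cultures, which overlap (-0.04 ± 0.12, adjusted p = 0.84). Fas, the death receptor gene, had 2.22 to 2.79 FPKM with DL1 and 3.92 to 5.04 FPKM in control. Of 22 tested oxidative phosphorylation genes 3 were higher and 1 lower (18.2% called), with a median of 0.02, and the lower call was lost without control replicate 1 or 2 or irradiated replicate 2 or 3 with DL1; Cox5a, a subunit of cytochrome c oxidase, had 259 to 295 FPKM with DL1 and 213 to 223 FPKM in control.

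**Figure D4:**
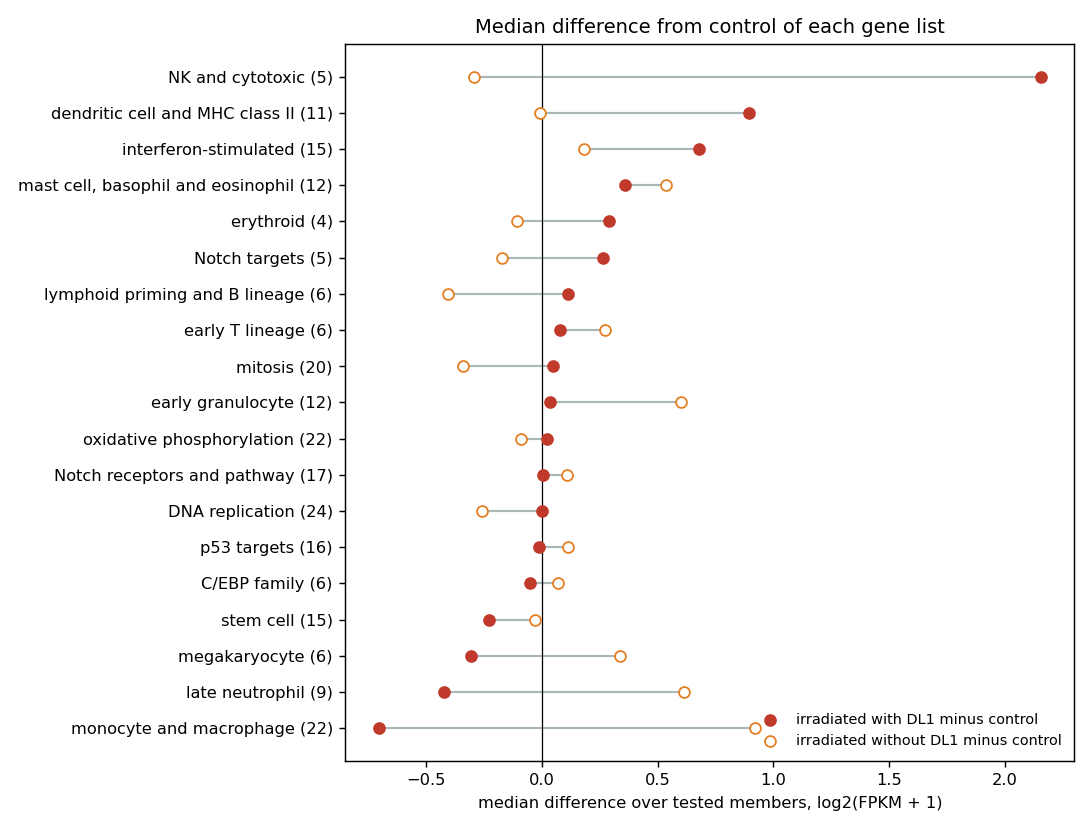
Median difference from control over the tested members of each gene list (number tested in brackets), in log2(FPKM + 1), for irradiated cultures with DL1 (filled) and irradiated cultures without DL1 (open); both use the same control libraries. Monocyte and macrophage genes have a median of -0.71 with DL1 and 0.92 without it, early granulocyte, replication and mitosis genes lie near 0 with DL1, and cytotoxic genes have a median of 2.16 with DL1.

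Set against control cultures that had also received DL1, irradiated cultures with DL1 differed in 379 genes (3.16% of those tested), 302 higher (2.52%) and 77 lower (0.643%). Of the early granulocyte genes 10 of 12 were higher by this test and 0 lower, with a median of 0.54, and of the late neutrophil genes 5 of 9 were higher and 0 lower, with a median of 0.64. S100a9 had 578, 643 and 442 FPKM in irradiated cultures with DL1 and 245, 213 and 273 FPKM in control cultures with DL1 (1.17 ± 0.20, adjusted p = 0.0094). Elane, at 299, 301 and 369 FPKM in control cultures with DL1, differed by 1.05 ± 0.14 (adjusted p = 0.0045), and Cebpa, at 44.0, 44.3 and 41.1 FPKM there, by 0.41 ± 0.08 (adjusted p = 0.022). Of the monocyte and macrophage genes 6 of 22 were higher and 0 lower, with a median of 0.54. Of the cytotoxic, dendritic cell, interferon-stimulated, replication and mitosis genes 0 was called in either direction; at an unadjusted p under 0.05, 9 of their 75 tested entries differed.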

How the data were processed

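The series holds 18 RNA-seq libraries, of which the 12 of cultured cells were fitted and 6 compared here; the others were not analysed. The deposited FPKM values were made by the authors from reads aligned with TopHat 1.4.1 and summarised with Cufflinks 1.3.0 and Cuffdiff, per the submitters' processing notes. Those notes name a human genome build although the cells are from mice, the build used is not otherwise given in the sources used here, and no coordinates were taken from the files. The library titles and conditions, not the source names, which disagree with them for the control cultures, gave the groups. FPKM files hold no counts, so no count test was run and absolute depth is unknown.

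Of 25629 listed names, 88.62% of the 25602 kept matched a RefSeq symbol or synonym, and 27 repeats were left out. Levels were taken as log2(FPKM + 1), which understates changes of low genes, for the 11981 genes with a mean of at least 1 FPKM over the 6 libraries. The 4 cultured groups were fitted together with limma 3.58.1 (R 4.3.3), letting the variance follow the mean level and using no block. Adjusted p-values are Benjamini-Hochberg values over all tested genes, called below 0.05. Differences are log2 values ± SE. The fit was tested on simulated data. Deviations from the group means of same-numbered libraries correlated at 0.234, 0.147 and 0.356 between irradiated cultures with and without DL1. There each library correlated best with its own number. Between irradiated cultures with DL1 and control cultures the values were 0.0841, -0.0179 and -0.0701. With 3 libraries per group the deviations are tied to each other, so this check is weak and does not settle a pairing. The classes ignore any such pairing, and the replicate block below also applies it to the control libraries. The labels state no shared animal or batch. The alternatives were other pseudocounts, filters, scaling, a replicate block, no trend, fewer groups and leaving out each library. The members and gene lists were chosen with earlier results of these data known. Genes were named by rule: the 10 largest rises and falls without overlap, the 3 most changed in each class and direction, the 4 smallest p-values in each list, and a short list that includes Cebpa, Cebpe, Notch1, Hes1, Flt3, Elane and Mki67; other genes named were chosen after their values were seen. Some items are not reported here.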

Additional observations from a re-analysis of the deposited data

Results flagged for a closer look

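For 5 of the named genes the change with DL1 differed between irradiated and control cultures, by the interaction term of the limma fit. Each gene had 3 libraries in each of the 4 groups, and no explanation was tested.

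Ppbp, a platelet chemokine gene, had 9.09, 7.58 and 11.5 FPKM in irradiated cultures with DL1, 59.9, 55.3 and 38.3 FPKM in irradiated cultures without DL1, 12.7, 14.7 and 16.9 FPKM in control cultures with DL1, and 17.8, 12.3 and 19.9 FPKM in control cultures. Its change with DL1 was lower in irradiated than in control cultures by a log2 difference of -2.17 (adjusted p = 0.0141). Myl10 had 10.9 to 15.4 FPKM in control cultures with DL1, and its difference was -1.46 (adjusted p = 0.0141). Cd63 had 88.0 to 108 FPKM in control cultures with DL1, and its difference was -0.81 (adjusted p = 0.0141). In all 3 genes every irradiated library with DL1 lay below every irradiated library without it, whereas in control cultures the Myl10 libraries with DL1 lay above those without it and the Ppbp and Cd63 libraries overlapped.

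Hpgd, a prostaglandin-degrading enzyme gene, had 2.44, 2.41 and 1.91 FPKM in irradiated cultures with DL1, 1.03, 0.690 and 0.708 FPKM in irradiated cultures without DL1, 1.34, 1.73 and 1.59 FPKM in control cultures with DL1, and 1.96, 1.81 and 2.60 FPKM in control cultures. Its difference was 1.13 (adjusted p = 0.0381). Aqp9, with 21.7 to 22.2 FPKM in control cultures with DL1, had a difference of 0.46 (adjusted p = 0.0463).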

How the results depend on the processing

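Genes pushed past control numbered 276 with no expression filter, genes changed with DL1 only numbered 782 with a mean of at least 5 FPKM, and genes left changed numbered 327 when only the groups compared were fitted; the stricter filter tests fewer genes and the smaller fit holds fewer libraries, and the cause was not tested further. Leaving out 1 library at a time gave 735 to 1044 genes lower than control, 274 to 682 pushed past, 227 to 663 left changed and 887 to 2638 brought back. With no filter, 242 of the 480 genes pushed past kept that class. Uncalled values near 0 changed sign between libraries left out, with ranges of -0.0769 to 0.187 for Slc40a1, -0.246 to 0.0645 for Aif1, -0.256 to 0.185 for Lgmn, -0.0674 to 0.0276 for Ptk7, -0.0113 to 0.167 for Hpgd, -0.0892 to 0.0330 for Kit and -0.155 to 0.0696 for Cdkn1a. With a replicate block 1358 genes were higher, 1077 lower, 477 pushed past, 473 left changed, 1632 brought back and 1185 changed with DL1 only; the calls it changed among the genes and lists described are given beside them, apart from Nuf2, which was called higher (0.18, adjusted p = 0.0362), and Pmaip1, no longer called (0.20, adjusted p = 0.0583). Median-ratio scaling between libraries gave 1224 higher and 1285 lower. FPKM carry no counts, so the depth behind low levels limits them by an unknown amount, and irradiated replicate 2 with DL1 was the shallowest.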
